A study of Mus musculus with 8 samples.

Results

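The Notch genes described here are the receptors *Notch1*, *Notch2* and *Notch3*, the ligands *Jag1*, *Jag2* and *Dll1*, the DNA-binding factor *Rbpj*, and the target genes *Hes1*, *Hey1* and *Heyl*. They were taken by name, with earlier results of these data known, and all 10 were found among the 23432 gene symbols of the count tables. They were followed in 8 polyA RNA-seq libraries of mouse skin epithelium, 2 per group. At embryonic day E16.5 the libraries came from dorsal-skin epithelial cells sorted for a Krt14-driven H2BGFP reporter, from controls and from MOF cKO embryos (MOFfl/fl/K14Cre). At postnatal day P0.5 they came from whole epidermis lifted off the dermis with Dispase, from controls and from Kansl1 cKO pups (Kansl1fl/fl/K14Cre). The labels give the controls no genotype beyond that word, and the study's methods call them littermates on a mixed C57Bl/6J and CD-1 background, with both sexes used. MOF (gene symbol *Kat8*) is the acetyltransferase for lysine 16 of histone H4, and KANSL1 is the scaffold of the NSL complex that contains it. The Krt14-Cre transgene acts in the skin epithelium, so cells of other types in a library keep the floxed gene.

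In Notch signalling, a ligand on the surface of a cell binds a receptor on its neighbour. The receptor is cut, first by an ADAM protease and then by the gamma-secretase complex, and its intracellular part enters the nucleus, where it joins RBPJ and a Mastermind coactivator on DNA. Without it, RBPJ is held by corepressors. In the epidermis the pathway is known for promoting the change from basal to spinous keratinocytes, with HES1 as a main effector and p63, the basal-layer factor encoded by *Trp63*, as an opponent.

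The libraries held 9108709 to 27561688 reads on genes. Levels within an experiment are given as CPM, read counts scaled to the depth of the library with TMM factors, on which 1 read was worth 0.0326 to 0.115 CPM. A gene was called changed at an adjusted p of at most 0.01, by the quasi-likelihood test of edgeR with Benjamini-Hochberg adjustment over all tested genes, together with a fold over 1.5. *Kat8* read 14.4 and 14.7 CPM in the controls and 12.4 and 13.9 CPM in MOF cKO, and *Kansl1* read 40.7 and 48.2 CPM in the controls and 31.4 and 30.6 CPM in Kansl1 cKO. Neither difference was called, and the counts cover the whole gene rather than the deleted part. *Xist*, read from the inactive X chromosome of females, was at 1518 CPM in E16.5 control replicate 1 and at 9.99 to 12 CPM in the other E16.5 libraries. It was at 1.23 CPM in P0.5 control replicate 2 and at 371 to 427 CPM in the other P0.5 libraries. The controls of each stage thus differed in *Xist* and the knockout replicates did not, so the groups were not matched for it. All 10 Notch genes lie on autosomes, and the part of sex in their levels was not tested.

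Loss of MOF was accompanied by higher *Notch1*, *Notch3*, *Jag1* and *Hes1*. These 4 of the 10 genes were called higher in MOF cKO and 0 were called lower, where 10% of the 13956 tested genes were called higher and 9.59% lower. All 10 passed the filter on low counts. Their median log2 fold change was 0.32, against -0.02 over all tested genes. With loss of Kansl1 at P0.5, edgeR called 0 of the 10 and 0% of all 13031 tested genes.

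The genes called higher in MOF cKO included *Notch1*, *Notch3* and *Jag1*, whose promoters are shown as background, since MOF is known to bind at active promoters. MOF binding at these promoters was not examined, and whether MOF acts on these genes directly was not tested. The sequences are the 250 bases before the RefSeq start on GRCm38.p6, the mm10 assembly, read 5′ to 3′ on the gene's own strand, with each CG dinucleotide in capitals. They lie at chr2:26503823-26504072, chr17:32166891-32167140 and chr2:137116521-137116770, each on the minus strand.

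Notch1: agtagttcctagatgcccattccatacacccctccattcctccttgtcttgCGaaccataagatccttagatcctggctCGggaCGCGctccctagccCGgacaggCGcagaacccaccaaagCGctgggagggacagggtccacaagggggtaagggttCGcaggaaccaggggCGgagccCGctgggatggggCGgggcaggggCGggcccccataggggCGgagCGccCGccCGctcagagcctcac

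Notch3: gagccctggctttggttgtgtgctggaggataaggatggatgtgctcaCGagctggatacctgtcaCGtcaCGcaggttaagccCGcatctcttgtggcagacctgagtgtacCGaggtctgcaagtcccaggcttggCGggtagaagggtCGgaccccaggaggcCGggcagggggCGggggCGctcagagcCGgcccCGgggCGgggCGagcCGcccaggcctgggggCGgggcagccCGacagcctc

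Jag1: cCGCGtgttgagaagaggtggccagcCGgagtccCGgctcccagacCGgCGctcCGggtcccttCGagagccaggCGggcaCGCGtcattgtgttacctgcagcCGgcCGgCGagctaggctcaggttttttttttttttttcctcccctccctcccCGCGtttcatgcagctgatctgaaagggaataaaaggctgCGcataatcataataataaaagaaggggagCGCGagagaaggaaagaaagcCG

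RefSeq promoters were found for 7 of the 10 genes, not for *Hes1*, *Hey1* and *Heyl*. The *Notch1*, *Notch3* and *Jag1* stretches held 16, 17 and 20 CG dinucleotides, the *Notch2* and *Jag2* stretches 34 and 54, and the median over 32851 RefSeq promoters was 6, with an upper quartile of 16. Their GC content was 66%, 68.8% and 57.2%, against a median of 52.4%. The core letters bound by RBPJ, TGGGAA or TTCCCA on the other strand, were searched over 300 bases around each start, and 25.6% of all promoters held them. They were not found at *Notch1*, *Notch2*, *Notch3*, *Jag1*, *Jag2* or either start of *Dll1*. They were found at *Rbpj* itself, 149 and 65 bases before its first start. A match or its absence is a description of these letters alone.

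*Notch1* (chr2:26457903-26516663, minus strand, mm10) read 656 and 675 CPM in the E16.5 controls and 1344 and 1296 CPM in MOF cKO. Both MOF cKO libraries lay far above both controls. The log2 fold change was 0.99 (SE 0.0963, 95% interval 0.76 to 1.21, adjusted p = 0.000649 by edgeR), a 1.98-fold rise. *Notch3* (chr17:32120820-32166852, minus strand), a receptor also known from vascular smooth muscle and pericytes, had the largest log2 fold change of the 10. It read 76.3 and 68.3 CPM in controls and 249 and 226 CPM in MOF cKO, again with a wide gap between the groups. Its log2 fold change was 1.72 (SE 0.115, 95% interval 1.45 to 1.98, adjusted p = 0.000253 by edgeR), a 3.29-fold rise. *Notch2* (chr3:98013527-98150361, plus strand) read 80.5 and 74.7 CPM in controls and 106 and 81.6 CPM in MOF cKO. The groups did not overlap, though MOF cKO replicate 2 lay just above the higher control, and the log2 fold change of 0.27 was not called (95% interval -0.074 to 0.61, adjusted p = 0.184 by edgeR).

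Among the ligands, *Jag1* (chr2:137081456-137116644, minus strand), a Jagged ligand, read 122 and 108 CPM in controls and 245 and 271 CPM in MOF cKO. Both MOF cKO libraries lay well above both controls. Its log2 fold change was 1.17 (SE 0.116, 95% interval 0.90 to 1.44, adjusted p = 0.000677 by edgeR), a 2.25-fold rise. *Jag2* (chr12:112907819-112929776, minus strand), the other Jagged ligand, read 410.4 and 470.1 CPM in controls and 489 and 647 CPM in MOF cKO. Its groups stood next to each other without overlap, and the log2 fold change of 0.37 was not called (95% interval 0.014 to 0.72, adjusted p = 0.0918 by edgeR). *Dll1* (chr17:15367354-15376872, minus strand), a Delta ligand, read 89.8 and 61.8 CPM in controls and 77.8 and 102 CPM in MOF cKO, with overlapping groups and a log2 fold change of 0.25 (95% interval -0.23 to 0.73, adjusted p = 0.364 by edgeR).

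*Rbpj* (chr5:53466152-53657362, plus strand), which carries the receptor signal to DNA, read 80.8 and 72.5 CPM in controls and 85 and 88.5 CPM in MOF cKO. The log2 fold change was 0.18 (95% interval -0.091 to 0.45, adjusted p = 0.255 by edgeR), so a rise over 1.5-fold lay outside the interval. *Hes1* (chr16:30064384-30067796, plus strand), the repressor that is a direct Notch target, read 34.5 and 35.8 CPM in controls and 59.6 and 57.5 CPM in MOF cKO. Replicates lay close together in both groups, and the log2 fold change was 0.73 (SE 0.117, 95% interval 0.46 to 1.01, adjusted p = 0.00315 by edgeR), a 1.66-fold rise. The related targets *Hey1* (chr3:8663359-8667256, minus strand) and *Heyl* (chr4:123233556-123249875, plus strand) were near the detection limit. *Hey1* had 40 and 56 reads in controls and 12 and 26 in MOF cKO, with a log2 fold change of -0.95 (95% interval -2.49 to 0.58, adjusted p = 0.284 by edgeR). *Heyl* had 18 and 84 reads in controls and 18 and 43 in MOF cKO, so its groups overlapped and its interval was wide (log2 fold change -0.40, 95% interval -2.35 to 1.56, adjusted p = 0.734 by edgeR). The interval of *Hey1* does not reach a 1.5-fold rise, and that of *Heyl* allows a large change of either sign.

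**Figure D1:**
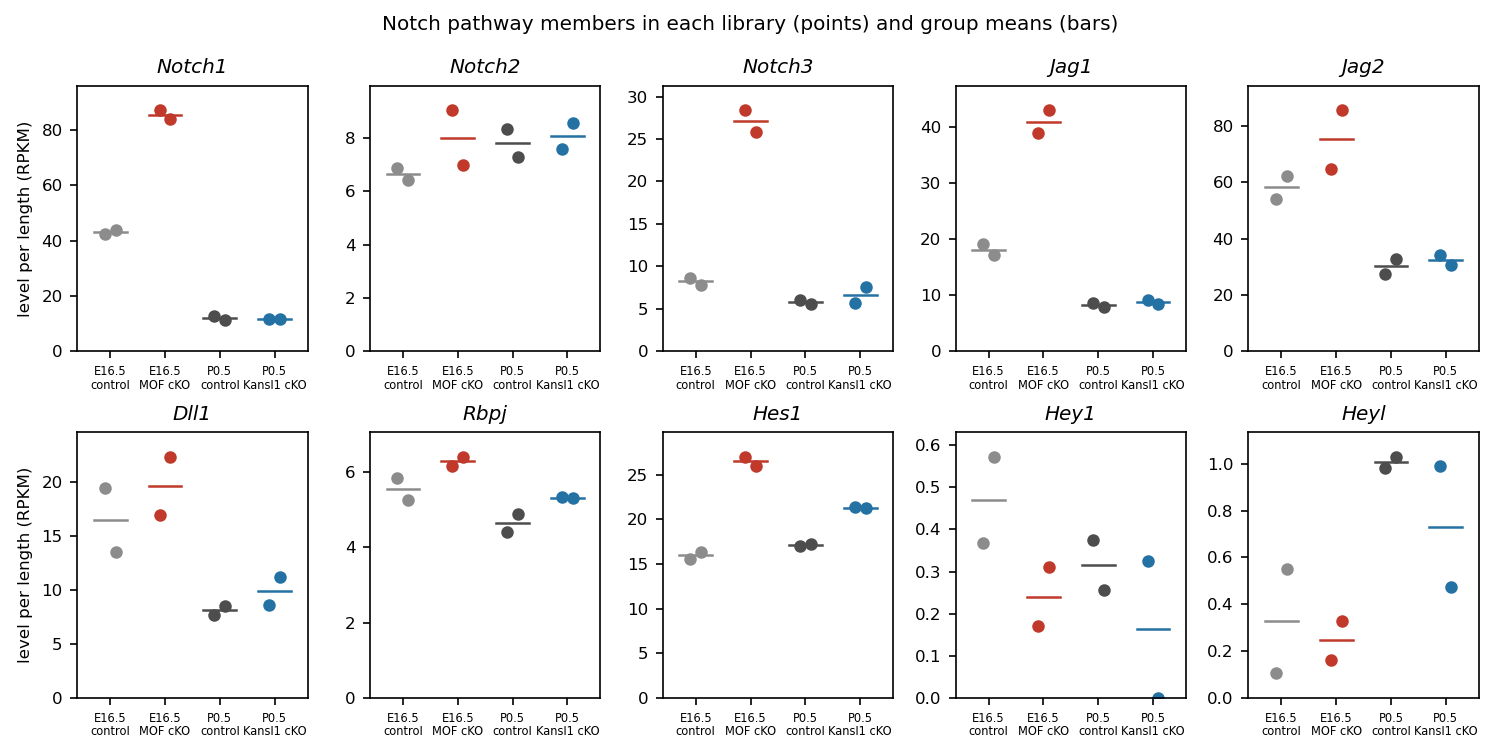
Levels per length (RPKM, linear axes from 0, TMM-scaled over all 8 libraries) of the 10 Notch genes, with points for libraries and bars for the means of the 2 libraries in each of the 4 groups. *Notch1*, *Notch3*, *Jag1* and *Hes1* stand highest in E16.5 MOF cKO, with both its libraries above all others, and *Hey1* and *Heyl* stay at or below 1.03 RPKM.

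The same 4 genes were called without any single E16.5 library, with DESeq2, and with the replicate block. Scaled by library size alone, without TMM, *Hes1* lost its call at a log2 fold change of 0.43 while *Notch1*, *Notch3* and *Jag1* kept theirs at 0.68, 1.41 and 0.87. That scaling moved the median of all tested genes from -0.02 to -0.32, and the calls over all genes from 1395 higher and 1338 lower to 769 higher and 2743 lower. Annotated genes on the opposite strand share exon bases with *Notch1* (1068 and 414 bases), *Notch3* (488) and *Dll1* (867). An annotated gene on the same strand shares 541 exon bases with *Notch2*. Whether the authors counted by strand is not given in the sources used here, so reads from those partners cannot be told apart from the Notch genes.

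At P0.5, *Notch1* read 172 and 152 CPM in controls and 151 and 153 CPM in Kansl1 cKO. The groups overlapped, and the log2 fold change of -0.092 had a 95% interval of -0.47 to 0.29 (adjusted p = 0.823 by edgeR), which does not reach a 1.5-fold rise. *Notch3* read 46.3 and 41.9 CPM in controls and 42 and 56.6 CPM in Kansl1 cKO. Its Kansl1 cKO replicate 2 was the highest of the 4 libraries and its replicate 1 lay within the controls (log2 fold change 0.16, 95% interval -0.30 to 0.62, adjusted p = 0.727 by edgeR). *Jag1* read 46.9 and 42.9 CPM in controls and 48.6 and 44.7 CPM in Kansl1 cKO, with overlap and a log2 fold change of 0.057 (95% interval -0.31 to 0.43, adjusted p = 0.895 by edgeR).

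*Hes1* read 32.4 and 32.6 CPM in the P0.5 controls and 39.6 and 39.5 CPM in Kansl1 cKO. Both Kansl1 cKO libraries were above both controls. The log2 fold change of 0.28 was not called by edgeR (SE 0.154, 95% interval -0.085 to 0.65, adjusted p = 0.427). Replicates lay close together, but 2 libraries per group measure the spread of a gene poorly. The share of all genes without overlap was not counted. *Rbpj* likewise read 52.5 and 57.7 CPM in controls and 61.7 and 62 CPM in Kansl1 cKO without overlap, with a log2 fold change of 0.17 (95% interval -0.19 to 0.52). *Notch2*, *Jag2* and *Dll1* had log2 fold changes of 0.012, 0.076 and 0.25, all with overlapping groups. *Heyl* read 4.7 and 4.91 CPM in controls and 4.6 and 2.21 CPM in Kansl1 cKO, and *Hey1* had 10 and 12 reads in controls and 20 and 0 in Kansl1 cKO. Neither sparse target was called.

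Of the 10 genes, 0 were called at P0.5 by edgeR and 0 by DESeq2, and 0 had an unadjusted p under 0.05. Over all 13031 tested genes, edgeR called 0, which is 0% of them, DESeq2 called 35 higher and 66 lower, and 15.7% had an unadjusted p under 0.05. *Notch1*, *Notch2*, *Jag1*, *Jag2* and *Rbpj* had intervals that stay within a log2 change of 0.52 on either side of 0. The intervals of *Notch3*, *Dll1* and *Hes1* reach past a 1.5-fold rise, and those of *Hey1* and *Heyl* allow a large change of either sign or a large fall.

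**Figure D2:**
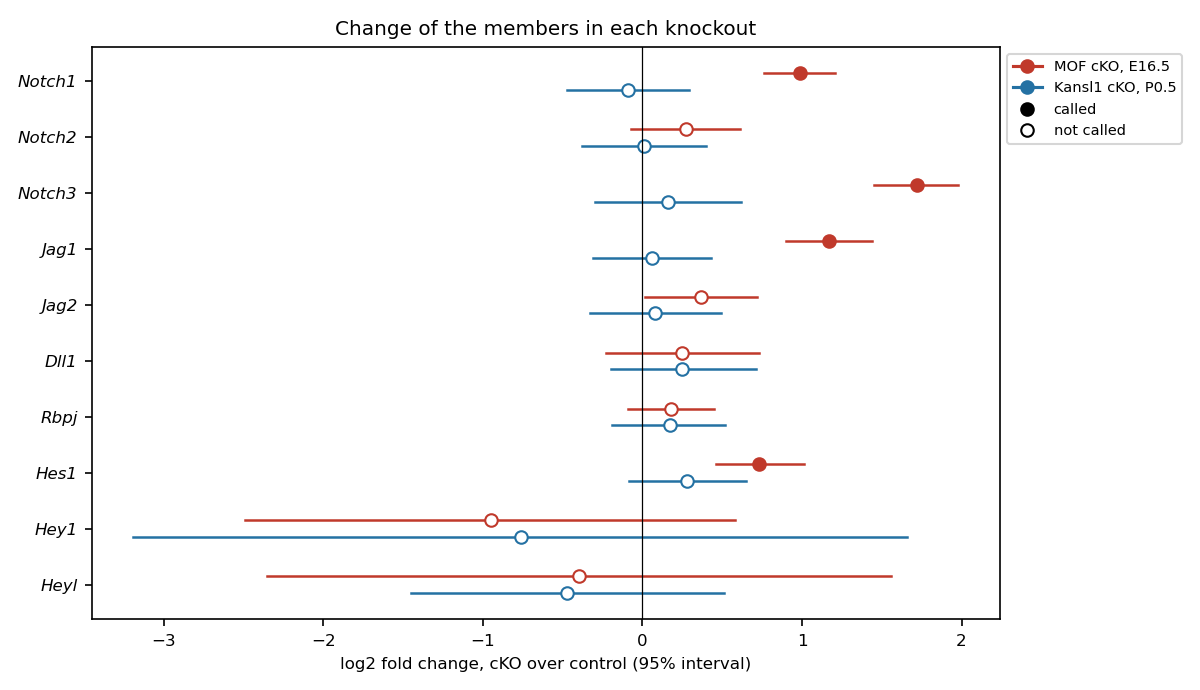
Log2 fold change of cKO over control for the 10 Notch genes, with 95% intervals as lines, for MOF cKO at E16.5 (red) and Kansl1 cKO at P0.5 (blue), where filled points are called. The MOF intervals of *Notch1* (0.76 to 1.21), *Notch3* (1.45 to 1.98) and *Jag1* (0.90 to 1.44) lie apart from the Kansl1 intervals of the same genes, and those of *Hes1* overlap.

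Whether the knockouts differed was tested on the difference of their log2 fold changes, over all 8 libraries. *Notch1*, *Notch3* and *Jag1* were called, with the MOF change larger by 1.05 (95% interval 0.66 to 1.43, adjusted p = 0.00761), 1.53 (1.01 to 2.04, adjusted p = 0.00555) and 1.08 (0.66 to 1.5, adjusted p = 0.00913) on the log2 scale by edgeR. These 3 of 10 stood beside 1.76% of 14565 tested genes called in that direction. *Hes1* differed by 0.42 (95% interval 0.011 to 0.83, adjusted p = 0.151 by edgeR) and was not called, so its rise in MOF cKO was not shown to exceed its change in Kansl1 cKO. For *Dll1* and *Rbpj* the difference was -0.028 (95% interval -0.72 to 0.67) and -0.018 (95% interval -0.42 to 0.39).

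These calls rested on the full set of libraries. With the replicate block 0 of the 3 kept the call, and with library size alone only *Notch3* did. Leaving out P0.5 control replicate 2 kept *Notch1* and *Notch3*, leaving out Kansl1 cKO replicate 2 kept *Notch3*, and leaving out any of the other 6 libraries kept 0. The differences themselves stayed between 0.96 and 1.21 for *Notch1*, 1.32 and 1.74 for *Notch3*, and 1.01 and 1.16 for *Jag1* when each library was left out in turn. Over all genes the split was 256 higher and 170 lower, and 219 and 245 with library size alone. Stage, isolation, deleted gene and, per the study, sequencing instrument differ together between the experiments and cannot be told apart.

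Between the 2 control groups, *Notch1* and all 3 ligands were higher in sorted E16.5 epithelium than in P0.5 epidermis, and *Notch2* and *Notch3* were not called. *Notch1*, *Jag1*, *Jag2* and *Dll1* were called higher at E16.5 and 0 were called lower, where 17.6% of 13859 tested genes were called higher and 22.2% lower. On the scale of the 4 control libraries, *Notch1* read 602 and 625 CPM at E16.5 and 184 and 164 CPM at P0.5, a log2 difference of 1.70 (SE 0.16, adjusted p = 9.03e-05 by edgeR). *Jag1* read 112 and 99.4 CPM against 50 and 46.1 CPM, a log2 difference of 1.02 (SE 0.149, adjusted p = 0.000734 by edgeR). *Notch1* and *Jag1* had wide gaps between the stages and kept their calls without any single control library.

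*Jag2* read 377 and 435 CPM at E16.5 and 192 and 228 CPM at P0.5 (log2 difference 0.83, adjusted p = 0.00337 by edgeR), and *Dll1* 82.4 and 57.1 CPM against 32.4 and 36.1 CPM (log2 difference 0.91, adjusted p = 0.00562 by edgeR). The *Jag2* call was lost without E16.5 control replicate 2, at a log2 difference of 0.74. The *Dll1* call was lost without E16.5 control replicate 1, P0.5 control replicate 1 or P0.5 control replicate 2, at 0.62, 0.84 and 0.98. *Notch2* and *Hes1* differed by -0.35 (adjusted p = 0.0741) and -0.22 (adjusted p = 0.257) in edgeR and were not called, and neither were *Notch3*, *Rbpj* and *Hey1* at 0.38, 0.14 and 0.49. *Heyl* read 0.539 and 2.81 CPM at E16.5 and 5.02 and 5.29 CPM at P0.5 (log2 difference -1.75, adjusted p = 0.0541 by edgeR), and it was called lower at E16.5 without E16.5 control replicate 2, at -3.35, and when every gene with at least 1 count was tested, at -1.73. With library size alone the split over all genes moved from 2436 higher and 3070 lower to 4340 and 2089, the median log2 difference from 0.011 to 0.47, *Notch3* gained a call, and *Notch2* and *Hes1* changed sign to 0.12 and 0.24. Stage, cell isolation and sequencing instrument cannot be told apart here.

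Per length (RPKM over annotated exons, scaled over all 8 libraries), *Jag2* was the most abundant of the 10 in the E16.5 controls at 58.3 ± 5.88 RPKM (SD, n = 2), followed by *Notch1* at 43.1 ± 1.11. *Jag1*, *Dll1* and *Hes1* followed. *Jag1* was at 18.2 ± 1.53, *Hes1* at 15.9 ± 0.509 and *Dll1* between them, with libraries at 19.5 and 13.5 that overlapped both. *Notch3*, *Notch2* and *Rbpj* came next at 8.23 ± 0.605, 6.63 ± 0.315 and 5.54 ± 0.396 without overlap. *Hey1* and *Heyl* were at 0.47 ± 0.145 and 0.327 ± 0.313 and overlapped.

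In MOF cKO, *Notch1* at 85.6 ± 2.27 RPKM and *Jag2* at 75.2 ± 14.7 overlapped at the head of the order. *Jag1* at 40.9 ± 2.9 came next, then *Notch3* at 27.1 ± 1.85 and *Hes1* at 26.5 ± 0.696, which overlapped. *Dll1*, *Notch2* and *Rbpj* stood at 19.7 ± 3.8, 8 ± 1.45 and 6.28 ± 0.171, and *Heyl* and *Hey1* at 0.246 ± 0.117 and 0.241 ± 0.0995. *Notch3* lay below *Dll1* and *Hes1* in the controls, and in MOF cKO above *Dll1* and level with *Hes1*.

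At P0.5 the controls and Kansl1 cKO had *Jag2* (30.2 ± 3.65 and 32.5 ± 2.41 RPKM), *Hes1* (17.1 ± 0.173 and 21.3 ± 0.124) and *Notch1* (12.2 ± 0.987 and 11.7 ± 0.0433) in that order, each apart from the next. *Jag1*, *Dll1* and *Notch2* lay between 7.8 and 9.9 RPKM with overlapping neighbours in both groups, and *Notch3* at 5.84 ± 0.381 and 6.68 ± 1.36, where it overlapped *Notch2* in Kansl1 cKO. *Rbpj* was at 4.63 ± 0.337 and 5.32 ± 0.00258. *Heyl* was the higher of the sparse targets there, at 1.01 ± 0.0373 and 0.731 ± 0.366, above *Hey1* at 0.315 ± 0.0842 and 0.163 ± 0.231. Rank between genes depends on the exon lengths used, from 2.04 kb for *Hes1* to 14.2 kb for *Notch1*. With library size alone, 15 of the 40 group means moved by more than the SD between replicates, for example *Notch1* to 52 and *Jag2* to 70.3 RPKM in the E16.5 controls, while the order within a library cannot change with its scaling.

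The make-up of the receptor RNA was unlike between the stages. *Notch1* supplied 73.2% and 75.5% of the summed receptor RPKM in the E16.5 controls, 70.0% and 71.9% in MOF cKO, 47.2% and 47.3% in the P0.5 controls and 46.8% and 42.1% in Kansl1 cKO. *Notch3* supplied 15% and 13.4% in the E16.5 controls and 22.8% and 22.1% in MOF cKO, and *Notch2* went from 11.9% and 11% to 7.25% and 5.98%. The summed receptor level itself was 57.8 and 58.1 RPKM in the E16.5 controls, 125 and 117 in MOF cKO, and 24.3 to 27.9 in the 4 P0.5 libraries. Among the ligands, *Jag1* supplied 20.7% and 18.3% in the E16.5 controls and 32.2% and 28.5% in MOF cKO, against 16.1% to 19.6% at P0.5. *Jag2* supplied 53.7% to 67.1% in every library. *Hes1* made up 92.6% to 98.8% of the summed RPKM of the 3 targets. These shares are descriptions, with no test.

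**Figure D3:**
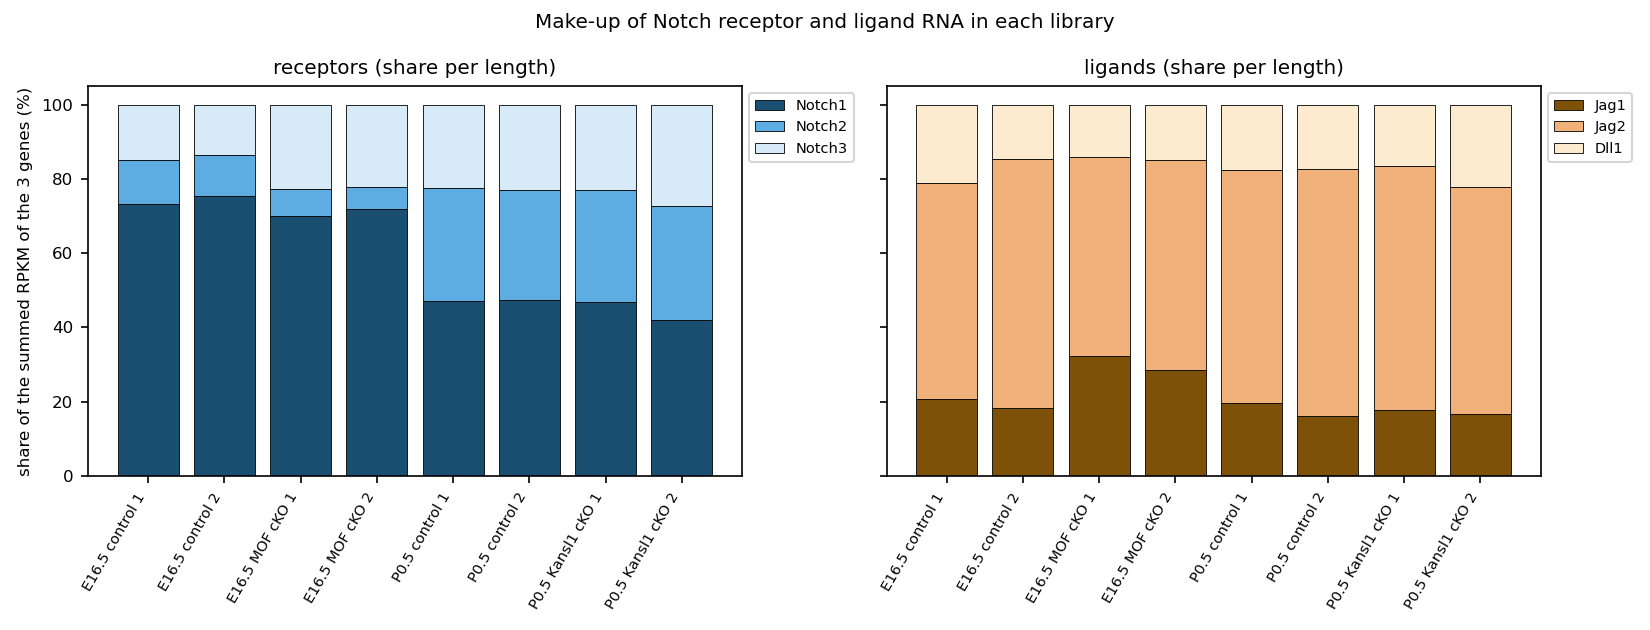
Share of each gene in the summed RPKM of the 3 receptors (left) and of the 3 ligands (right), in percent, as 1 stacked bar per library. *Notch1* fills 70.0% to 75.5% of the receptor bar in the 4 E16.5 libraries and 42.1% to 47.3% in the 4 P0.5 libraries, and the share of *Jag1* is larger in the 2 MOF cKO libraries (32.2% and 28.5%) than in the other 6.

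The other genes of the pathway moved in both directions with loss of MOF. Of 64 listed genes, 57 passed the filter, 4 were called higher and 8 lower, and their median log2 fold change was -0.18. These counts stood beside 10% of all tested genes called higher and 9.59% called lower, and lay near those shares. The split was 0 higher and 12 lower with library size alone, 1 and 8 in 1 fit over all 8 libraries, where *Dlk1*, *Ctbp2* and *Tle1* lost their calls, and 2 and 6 without E16.5 control replicate 1.

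On the ligand-sending side, *Mib2* and *Neurl1b*, E3 ubiquitin ligases that promote ligand endocytosis, fell in MOF cKO. *Mib2* read 34.7 and 43.2 CPM in controls and 10.8 and 9.44 CPM in MOF cKO (log2 fold change -1.94, SE 0.178, adjusted p = 0.000556 by edgeR), and *Neurl1b* 29.4 and 31.1 CPM against 9.44 and 11.3 CPM (log2 fold change -1.54, adjusted p = 0.000838). The other 4 ligand-endocytosis genes, *Mib1* among them (log2 fold change 0.27), were not called. *Dlk1*, a non-canonical ligand-like protein, was called higher at 5.74 and 11.9 CPM in controls and 24.7 and 27.5 CPM in MOF cKO (log2 fold change 1.57, adjusted p = 0.00791 by edgeR). Its call was lost without MOF cKO replicate 2, at 1.49.

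In receptor processing, *Ncstn*, the gamma-secretase subunit nicastrin, was called lower (log2 fold change -0.62, adjusted p = 0.00384 by edgeR), and so was *Pofut1*, the O-fucosyltransferase of the receptor's EGF repeats (-0.85, adjusted p = 0.00227). The *Ncstn* call was lost without E16.5 control replicate 1, at -0.59. The sheddase genes *Adam10* and *Adam17* had log2 fold changes of 0.15 and 0.20 and were not called. *Dtx3*, a Deltex-family ligase, was called lower at 98.6 and 114 CPM in controls and 52.8 and 55.1 CPM in MOF cKO (log2 fold change -0.98, adjusted p = 0.00126 by edgeR).

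Of the nuclear partners, the Mastermind coactivator *Maml2* (log2 fold change -1.05, adjusted p = 0.00492 by edgeR) and *Cir1*, a corepressor that binds RBPJ (-1.24, adjusted p = 0.00164), were called lower. The corepressors *Ctbp2* (0.61, adjusted p = 0.00542) and *Tle1* (0.73, adjusted p = 0.00639) were called higher. *Maml2* lost its call without E16.5 control replicate 1 (-0.85) or MOF cKO replicate 2 (-0.97). *Ctbp2* lost it without E16.5 control replicate 1 (0.56), E16.5 control replicate 2 (0.66) or MOF cKO replicate 1 (0.58), and *Tle1* without E16.5 control replicate 1 (0.71) or MOF cKO replicate 1 (0.58). With library size alone, *Dlk1*, *Ctbp2*, *Tle1* and *Nrarp* lost their calls at 1.27, 0.30, 0.42 and 0.61.

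Among the other targets the direction was mixed. *Nrarp*, a Notch target that dampens the pathway, read 77.8 and 83.8 CPM in controls and 133 and 171 CPM in MOF cKO (log2 fold change 0.91, SE 0.142, adjusted p = 0.00283 by edgeR). *Hes6*, which is known to oppose HES1 rather than to act as a Notch effector, fell from 15.8 and 14.4 CPM to 3.51 and 4.36 CPM (log2 fold change -1.94, SE 0.238, adjusted p = 0.00121 by edgeR). *Hes5* had 0 reads in all 4 E16.5 libraries, and *Hes2*, *Hes3*, *Hes7* and *Hey2* were below the filter.

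In the Kansl1 comparison, 54 of the 64 pathway genes were tested, and 0 were called by edgeR and 0 by DESeq2. An unadjusted p under 0.05 by edgeR was found for 7 of the 54, near the share of 15.7% over all tested genes. *Dlk1* was named after its values were seen, because its call depended on the libraries. It read 37.9 and 13.8 CPM in P0.5 controls and 7.51 and 7.9 CPM in Kansl1 cKO (log2 fold change -1.73, adjusted p = 0.208 by edgeR), and was called when either Kansl1 cKO library was left out and when no filter was used.

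**Figure D4:**
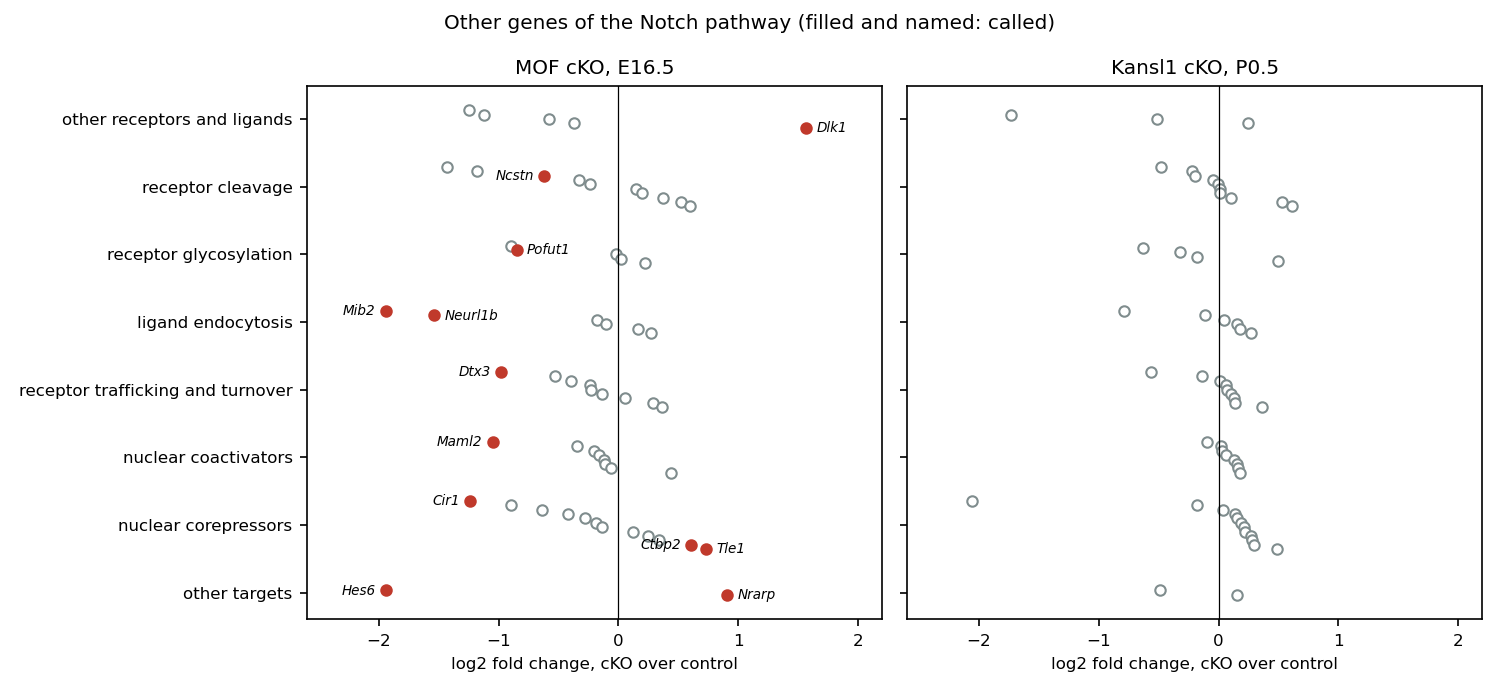
Log2 fold change of cKO over control for the other Notch pathway genes that passed the filter, grouped by role, for MOF cKO (left, 57 genes) and Kansl1 cKO (right, 54 genes). Filled and named points are the 4 genes called higher and the 8 called lower in MOF cKO, and the Kansl1 panel holds 0 called genes.

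A list of 6 epidermal genes tied to Notch by earlier knowledge was read beside the members. In MOF cKO 4 of them were called higher and 0 lower, beside 10% and 9.59% of all tested genes. *Krt1*, *Krt10* and *Ivl* are also among the layer markers summed below. *Cdkn1a*, a cell cycle inhibitor that Notch can induce but p53 induces too, read 88.4 and 126 CPM in controls and 438 and 611 CPM in MOF cKO (log2 fold change 2.29, adjusted p = 0.000602 by edgeR). The suprabasal keratins *Krt1* and *Krt10* were called higher, at 1.67 (adjusted p = 0.000394) and 1.12 (adjusted p = 0.00105) on the log2 scale, and *Ivl*, an envelope protein of later layers, rose from 0.359 and 0.722 CPM to 10.8 and 9.82 CPM. *Trp63* read 708 and 632 CPM in controls and 484 and 417 CPM in MOF cKO; its log2 fold change of -0.57 had an adjusted p of 0.0087 by edgeR but did not reach 1.5-fold. *Wnt4*, a Wnt ligand, had a log2 fold change of -0.43 and was not called. It was called without MOF cKO replicate 2 (-0.75), and *Trp63* without E16.5 control replicate 2 (-0.65) and with library size alone (-0.88). In Kansl1 cKO 0 of the 6 were called by edgeR, 1 had an unadjusted p under 0.05, and *Krt1* and *Krt10* differed more between replicates than between groups.

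In bulk RNA, a larger share of cells of a type and more RNA per cell cannot be told apart, so the summed levels of cell type markers are given beside the Notch genes. Markers of the spinous layer summed to 4228 and 3416 CPM in the E16.5 controls and 9242 and 10125 CPM in MOF cKO. Of these 6 markers, 5 were called higher. Basal markers summed to 36908 and 35239.6 CPM and to 31217 and 38501 CPM, with 1 of 7 called higher and 1 lower. Granular markers summed to 138 and 157 CPM and to 232 and 217 CPM, with 1 of 6 called higher. Hair germ and follicle markers summed to 2051 and 2882 CPM and to 2588 and 3557 CPM, most of it *Krt17*, at 1566 and 2198 CPM in controls and 2313 and 3262 CPM in MOF cKO without a call. The other way, 3 of the 7 were called lower, namely *Shh*, *Lhx2* and *Edar*, with log2 fold changes of -2.59, -3.18 and -1.19. The part of the layer markers' rise in the higher *Notch1*, *Notch3*, *Jag1* and *Hes1* was not tested.

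Some markers of other cell types also moved. Macrophage markers summed to 21 and 46.2 CPM in controls and 109.5 and 138 CPM in MOF cKO, with 8 of 11 called higher. Most of the control sum was *Cd68*, at 18.1 and 41.7 CPM, against 22.9 and 51.9 CPM in MOF cKO without a call. Endothelial markers summed to 17 and 20.5 CPM and to 21.4 and 37.1 CPM, with 1 of 8 called higher. Most of the control sum was *Egfl7*, at 9.65 and 11.1 CPM, which was lower in MOF cKO at 6.27 and 8.17 CPM without a call. Of the 8 markers, 7 had higher fitted levels in MOF cKO. Mural-cell markers summed to 100 and 164 CPM and to 69.2 and 82.7 CPM, most of it *Cspg4*, at 97.9 and 158 CPM in controls and 35.7 and 63.4 CPM in MOF cKO without a call, while *Acta2* was called higher at 0.196 and 1.16 CPM in controls and 18.5 and 8.09 CPM in MOF cKO. Of the 6 mural markers tested, 5 had higher fitted levels in MOF cKO. An unadjusted p under 0.05 by edgeR was found for 5, among them *Cspg4*, which was lower. *Pdgfrb* read 1.27 and 3 CPM in controls and 6.43 and 5.63 CPM in MOF cKO, with a log2 fold change of 1.5 that was not called, and *Rgs5* was at 0 to 0.423 CPM and below the filter. Fibroblast markers summed to 933 and 1565 CPM and to 1549 and 2165 CPM, with 0 of 7 called by edgeR and 6 of 7 at an unadjusted p under 0.05. Among these 6, *Dcn* was lower (log2 fold change -0.30). Such p-values were frequent in MOF cKO, at 24 of 57 pathway genes and 4 of 7 basal markers. Their share over all tested genes was not counted. Melanocyte markers summed to 15 to 74.3 CPM with 0 of 6 called, Merkel-cell markers to 44.7 and 41.6 CPM in controls and 13.9 and 16.9 CPM in MOF cKO with 1 of 6 called lower, and T-cell markers stayed at or under 0.452 CPM, with *Cd3d*, *Cd3g* and *Cd2* at 0. The part of these cells in the changes of the Notch genes was not tested.

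At P0.5 the suprabasal markers differed between replicates more than between genotypes. Spinous markers summed to 73485 and 41481 CPM in controls and 44437 and 69655 CPM in Kansl1 cKO, and granular markers to 20307 and 12652 CPM and to 7534 and 20367 CPM. Basal markers summed to 18494 and 19513 CPM in controls and 17757 and 17517 CPM in Kansl1 cKO, without overlap. Melanocyte markers summed to 464 and 517 CPM in the P0.5 controls and 994 and 1121 CPM in Kansl1 cKO, and fibroblast markers to 1781 and 1121 CPM and to 941 and 752 CPM. Macrophage markers summed to 186 and 220.5 CPM in controls and 279.5 and 305 CPM in Kansl1 cKO, and T-cell markers to 6.76 and 4.65 CPM and to 12.6 and 12.6 CPM. These 4 sums did not overlap between the groups. Neither did endothelial sums, at 10.1 and 6.59 CPM in controls and 6.49 and 4.74 CPM in Kansl1 cKO. Merkel-cell sums, at 13.2 and 11.7 CPM and at 10.9 and 7.98 CPM, also lay apart. The share of all genes without such overlap was not counted. At P0.5 edgeR called 0 genes of any marker list. An unadjusted p under 0.05 was found for 6 of 6 melanocyte and 6 of 7 fibroblast markers. It was also found for 4 of 11 macrophage and 4 of 4 tested T-cell markers. So it was for 2 of 3 tested mural markers, *Pdgfrb* and *Des*, both lower, and 2 of 7 hair germ and follicle markers, all 7 higher. The share over all tested genes was 15.7%. Mural sums overlapped, at 59.9 and 31.3 CPM in controls and 45.4 and 35.1 CPM in Kansl1 cKO. Hair germ and follicle sums, at 1083 and 1213 CPM in controls and 1639 and 1199.9 CPM in Kansl1 cKO, overlapped too. Spinous and granular markers were called lower at E16.5 than at P0.5 for 6 of 6 genes each, as were 10 of 11 macrophage and 6 of 6 melanocyte markers, and these stood beside every stage difference given above. Their part in the results was not tested.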

How the data were processed

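PolyA RNA was sequenced from 8 samples of mouse skin epithelium, 2 per group, with a directional kit. Per the labels' processing notes, the authors aligned with TopHat2 to mm10 and counted with HTSeq, while the methods name HISAT2 as the aligner. The deposited files hold raw read counts per gene symbol, and 21.1% to 26% of the reads named no gene and were left out. Members and lists were chosen with earlier results of these data known. All genes of a comparison were fitted with edgeR 4.0.16 in R 4.3.3 (quasi-likelihood test, filterByExpr, TMM, Benjamini-Hochberg over all tested genes), each experiment alone, and called at an adjusted p of at most 0.01 and a fold over 1.5. The scripts were tested on simulated data. RPKM used the union of exons in GENCODE M21, in which 92.9% of symbols were found. Named genes are all members, every called gene of the pathway list and every gene of the epidermal list, from which 1 gene was dropped and is not reported here. Alternatives were DESeq2 1.42.0, other scalings and thresholds, no filter, the replicate block, 1 fit over 8 libraries and leaving out each library. Replicates differed beyond counting noise. The labels do not say whether replicates came from separate animals. *Xist* differed between the control replicates of each stage, which were thus not the same animal, and it was alike between the knockout replicates. The p-values measure the spread between these libraries, and floors cover counting error only.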

Additional observations from a re-analysis of the deposited data

Results flagged for a closer look

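The log2 change in MOF cKO at E16.5 exceeded that in Kansl1 cKO at P0.5 by 1.05 for *Notch1*, 1.53 for *Notch3* and 1.08 for *Jag1*, by the edgeR test of the difference over all 8 libraries at an adjusted p of at most 0.01. Both MOF cKO libraries were above both of their controls for each of the 3 genes, and the Kansl1 cKO and control libraries overlapped for each. Stage, cell isolation and sequencing instrument differ between the knockouts and cannot be told apart from the deleted gene.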

How the results depend on the processing

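With 2 libraries per group, leaving out 1 leaves an arm of 1, which is then assumed to vary like the other groups. The calls of *Notch1*, *Notch3*, *Jag1* and *Hes1* in MOF cKO remained under each alternative, except that *Hes1* lost its call with library size alone. For the difference between knockouts, the 3 member calls became 1 with library size alone, 0 with the replicate block, and 0 to 2 with libraries left out in turn. The same-numbered libraries deviated with a correlation of 0.21 at E16.5 and -0.2 at P0.5, over 2 pairs each. The methods speak of pairs with littermate controls, but nothing ties a replicate number to a litter, and this check does not settle it. The block left 4 members called in MOF cKO and 0 in Kansl1 cKO, and 14 pathway genes called in place of 12, and the crossed pairing at P0.5, chosen after seeing the data, called 0 members and 0 pathway genes. Pathway calls in Kansl1 cKO were 1 without the filter and 0 to 1 with libraries left out.

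Signs turned for uncalled values. In MOF cKO, library size alone gave *Notch2* -0.039, *Dll1* -0.052 and *Rbpj* -0.13, and *Heyl* ran from -1.15 to 1.21 with libraries left out. In Kansl1 cKO, *Notch2* was -0.0057 with DESeq2, -0.0059 with RLE factors and -0.039 with library size alone, and *Krt10* -0.0091 with library size alone. With libraries left out, Kansl1 values ran from -0.12 to 0.12 for *Notch2*, -0.065 to 0.33 for *Notch3*, -0.041 to 0.12 for *Jag1*, -0.037 to 0.17 for *Jag2*, -6.56 to 0.043 for *Hey1*, -0.49 to 0.51 for *Krt1*, -0.36 to 0.50 for *Krt10* and -0.51 to 0.32 for *Ivl*. Between stages, library size alone gave *Notch2* 0.12 and *Hes1* 0.24. The cause was not tested.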
